A study of Homo sapiens with 4 samples.

Results

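Domain VI is the last of the large secondary-structure domains of 28S rRNA, the long RNA of the large ribosomal subunit. It was taken as nt 4561 to 5070 of 28S, which are nt 12485 to 12994 of the 45S precursor (the RefSeq transcript of RNA45SN5, sense strand). These are 510 of the 15984 listed positions and 510 of the 5070 nt of 28S, 10.1% of its length. The precursor is transcribed from arrays of rDNA on the short arms of the acrocentric chromosomes, and the RefSeq gene table places RNA45SN5 on no named chromosome.

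The 4 libraries held RNA pulled down with Flag-SIRT7 from nuclear (n = 2) and cytosolic (n = 2) fractions of HEK293T cells, a human embryonic kidney line with the SV40 large T antigen, at passages 10 to 15. Every library came from cells that stably overexpress Flag-tagged SIRT7, a mainly nucleolar NAD-dependent deacylase, and the labels do not say whether the line is 1 clone. Neither an input library nor a mock pull-down was analysed here, so depth is RNA recovered on the anti-Flag gel and not enrichment. The labels number the libraries but name no separate cultures, so any p-value rests on differences among these libraries that may be technical only.

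Domain VI carries the sarcin-ricin loop, a hairpin that the translational GTPases (elongation factors among them) touch when they bind the ribosome. The loop is the target of ricin, which removes 1 adenine, and of α-sarcin, which cuts the neighbouring bond. In eukaryotes the domain is enlarged by expansion segments, of which ES39L, grown from helix 98, lies in its middle, and it ends at the mature 3' end of 28S, where the 3' external transcribed spacer (3'ETS) is cut away during nucleolar processing.

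The sequences that the results turn on were read from the base column of the deposited table, in DNA letters, 5' to 3'. In the first, capitals mark 11 conserved bases of the sarcin-ricin loop. In the next pair, 1 capital marks the base of highest depth in the domain, in the cytosolic and then in the nuclear libraries. In the fourth, capitals mark the longest run of C in the domain, and in the fifth the longest run of G and C of that window. The lowest depth of each library within the trough, at nt 4805 or 4806, lies in the fourth sequence. The fifth holds only a later part of the floor. In the last, capitals mark the bases after a steep fall in depth at the 3' end.
Sarcin-ricin loop, nt 4591 to 4620: tcctgctcAGTACGAGAGGaaccgcaggtt
Cytosolic maximum, nt 4651 to 4680: agccaatggGgcgaagctaccatctgtggg
Nuclear maximum, nt 4711 to 4740: ccgccCaggcggaacgatacggcagcgccg
Edge of the trough, nt 4771 to 4830: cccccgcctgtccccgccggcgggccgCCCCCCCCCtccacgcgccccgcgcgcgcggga
Floor of the trough, nt 4831 to 4860: gggcgcgtGCCCCGCCGCGCGCCGGGaccg
3' end, nt 5041 to 5070: gaaagtcagccctcgacacaagggTTTGTC

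The label of the domain was checked against these bases. The 11 capitalised letters of the loop, searched on both strands, occurred once in all listed sequences, at nt 4599 to 4609 of 28S, in 1 of 533 windows of 30 nt (0.188%). The GAGA tetraloop within them starts at nt 4604, so its first adenine, the base that ricin removes, is nt 4605. Depth also dropped at the end of the domain in every library, as described below for the mature 3' end. It fell over the last 30 nt of 18S, 5.8S and 5S as well, so this drop does not single out the domain.

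Depth is the number of reads that covered a position, so that 1 read counts at every base it spans and neighbouring values share reads. It is given as a multiple of the library's own mean over the whole table, which was 211717 and 189023 reads in the nuclear libraries and 207648 and 197618 in the cytosolic ones. A relative depth is therefore a share of the rRNA reads of a library, and fewer copies of an RNA cannot be told apart from poorer recovery or sequencing of it.

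Domain VI as a whole was recovered to nearly the same share in both fractions, while the shape of its depth differed. Its relative depth was 2.62 and 2.71 in the nuclear libraries and 2.57 and 2.53 in the cytosolic ones. The log2 difference, nucleus minus cytosol, was 0.06 (95% interval -0.20 to 0.33) in a limma fit over 11 regions of the rRNAs, with an adjusted p of 0.526, in which 54.5% of regions passed the threshold of 0.05. Scaling by the median of ratios turned it to -0.15 (adjusted p = 0.517), and scaling to the depth of 28S made it 0.26, past the threshold (adjusted p = 0.0361 in limma). On median depths it was 0.32 (adjusted p = 0.108).

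Within 28S, however, the domain took a larger part of the nuclear depth. It held 13.1% and 13.6% of the 28S depth in the nucleus, against 11.1% and 11.3% in the cytosol, and the libraries of the fractions did not overlap. The log2 ratio of its mean depth to that of the rest of 28S was 0.46 ± 0.05 in the nucleus and 0.17 ± 0.02 in the cytosol (SD, n = 2), a difference of 0.29. With 2 libraries against 2, a two-sided exact permutation test can reach no p below 0.333, the value found. Set against 18S, the rRNA of the small subunit, the domain lay lower in the nucleus, by a log2 difference of -0.31 (exact permutation p = 0.333), so the direction depended on which rRNA it was compared with. On median depths the difference from the rest of 28S was 0.65, with ratios of 0.35 ± 0.06 in the nucleus and -0.30 ± 0.12 in the cytosol (SD, n = 2).

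Along the domain, depth climbed across the sarcin-ricin loop to a maximum and then fell to a deep trough in the G+C-rich middle. Past the trough it rose to a lower second maximum and declined to the 3' end. The first 120 nt, nt 4561 to 4680, held 40.6% and 40.4% of the domain's depth in the nuclear libraries and 49.5% and 50.6% in the cytosolic ones. The middle 240 nt, nt 4681 to 4920 and about ES39L (its bounds were not aligned here), held 42.2% and 43.8% in the nucleus, against 34.6% and 34.4% in the cytosol. The last 150 nt held 17.2% and 15.8% in the nucleus, against 15.8% and 15.0% in the cytosol. The nuclear share was thus smaller over the loop and larger in the middle in both nuclear libraries. For the last stretch the nearest values of the fractions, 15.846% in nuclear replicate 2 and 15.843% in cytosolic replicate 1, were about equal.

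On mean depths the shift toward the middle exceeded the difference between libraries of a fraction, and on median depths it did not. The log2 ratio of mean depth in the middle to that in the rest of the domain was -0.28 and -0.19 in the nuclear libraries and -0.75 and -0.76 in the cytosolic ones. The difference was 0.52, with an exact permutation p of 0.333. This ratio needs no scaling between libraries. Taken on median depths the ratio was -0.52 and -0.76 in the nuclear libraries, against -0.87 and -0.80 in the cytosolic ones. The difference was then 0.20, less than that between the nuclear libraries.

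**Figure D1:**
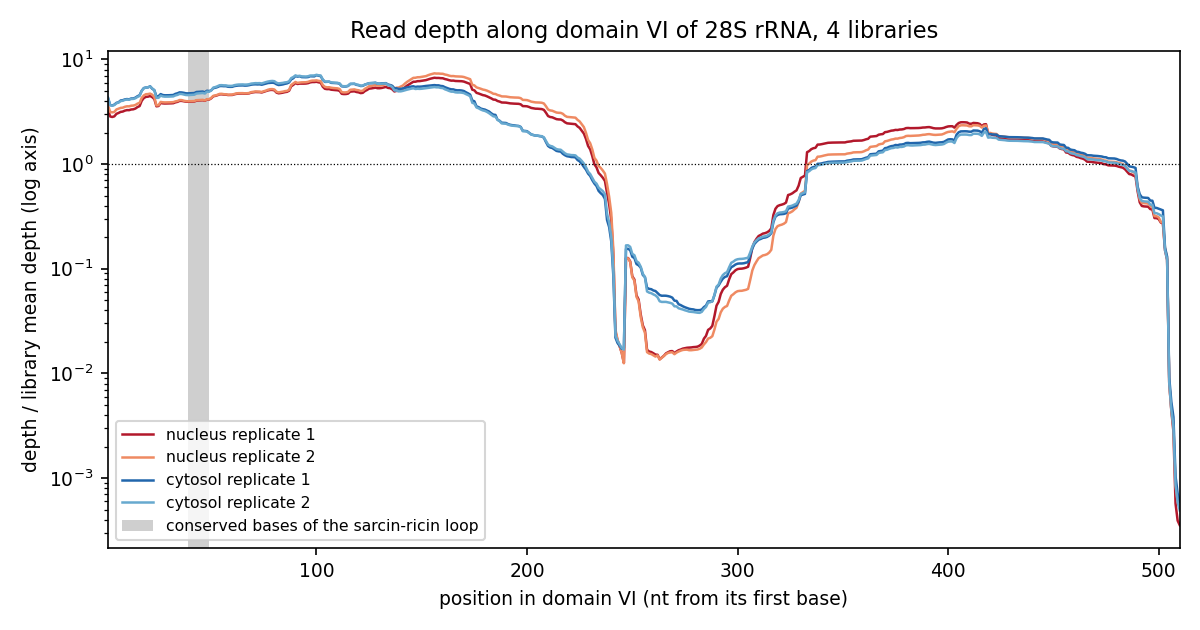
Relative depth (depth over the library mean, log axis) at each of the 510 positions of domain VI, counted from its first base, with a line for each of 2 nuclear (red and orange) and 2 cytosolic (shades of blue) libraries. The grey band marks the conserved bases of the sarcin-ricin loop. The nuclear lines run below the cytosolic ones over the loop, above them from about position 142 to 243, and below them in the trough. The lowest points of the trough are 0.0126 and 0.0125 in the nucleus, against 0.0171 and 0.0169 in the cytosol, and the second minimum averages 0.0136 in the nucleus, against 0.0390 in the cytosol.

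The profile was alike in outline in all 4 libraries. Across the 510 positions the correlation of log2 depth was 0.999 between the cytosolic libraries, 0.996 between the nuclear ones and 0.978 to 0.980 between fractions. These are descriptions, since neighbouring positions share reads and all libraries share base composition. The median absolute log2 difference between libraries was 0.115 for the nuclear pair, 0.0574 for the cytosolic pair and 0.232 to 0.298 between fractions.

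The domain was divided into 17 windows of 30 nt, numbered from its 5' end, and all 17 had enough depth to be tested. In limma with Benjamini-Hochberg adjustment over the 439 windows tested in all rRNAs, 4 windows of the domain were higher in the nucleus, 6 were lower and 7 did not pass. Of all windows tested, 37.4% were higher and 18% lower. The shares within the domain were 23.5% higher and 35.3% lower, against 3.29% and 42.8% of the 152 windows of 28S before the domain. The median log2 difference was -0.04 over the domain, -0.23 over the rest of 28S and 0.01 over all windows tested. The counts changed whenever 1 library was left out, in fits that keep 1 library in a fraction and estimate the spread anew. Without cytosolic replicate 1 there were 2 higher and 0 lower (25.3% and 8.88% of all windows), and without cytosolic replicate 2 again 2 and 0 (31.2% and 10.5%). At an unadjusted limma p under 0.05 these fits had 4 higher and 2 lower, and 3 higher and 3 lower. Without nuclear replicate 1 there were 3 higher and 3 lower (39% and 20% of all windows), and without nuclear replicate 2 there were 6 and 5 (44.2% and 18.9%).

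The split also depended on the scaling. A median-of-ratios scaling, which moves every log2 ratio by -0.22 before the pseudocount, gave 2 higher and 6 lower, where 28.7% of all windows were higher and 25.3% lower. Scaling to 28S, which moves the ratios by 0.19, gave 7 higher and 1 lower, where 42.6% and 10.3% of all windows were. With the replicate number as a block 5 were higher and 4 lower (34.4% and 17.5% of all windows). With 51-nt windows 3 of 10 were higher and 3 lower, where 37.8% of all such windows were higher and 17.8% lower.

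**Figure D2:**
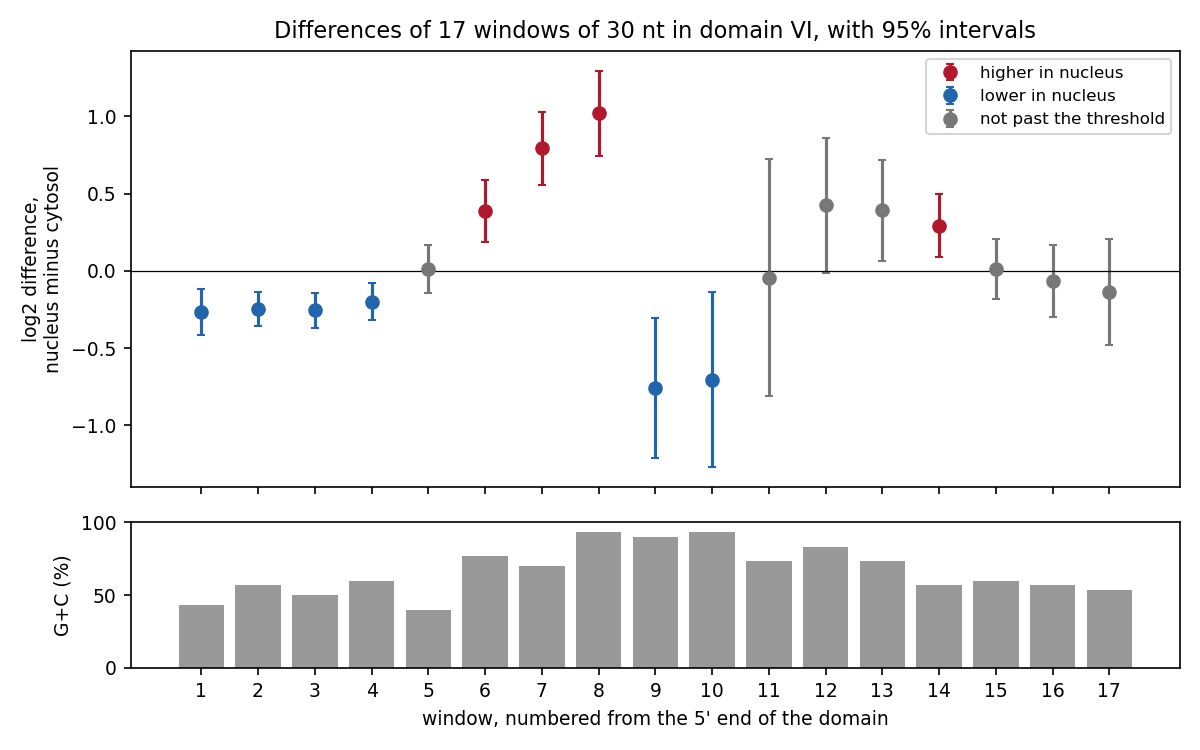
Upper panel: log2 difference in relative depth, nucleus minus cytosol, for the 17 windows of 30 nt, with 95% intervals of the limma fit (n = 2 libraries per fraction). Red windows are higher and blue ones lower in the nucleus, and grey ones did not pass. Lower panel: G+C content of each window in percent. Windows 1 to 4 lie at -0.27 to -0.20, windows 6 to 8 at 0.39 to 1.02, and windows 9 and 10 at -0.76 and -0.71.

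The sarcin-ricin loop lay in a stretch of even, modest fall. Its window, nt 4591 to 4620, had a relative depth of 4.18 and 4.23 in the nuclear libraries and 5.03 and 4.97 in the cytosolic ones. The fractions did not overlap, and the cytosolic pair was 1.19 times as deep on average. The log2 difference was -0.25 (95% interval -0.36 to -0.14), with an adjusted p of 0.011 in limma. The first window, nt 4561 to 4590, had 3.58 and 3.81 in the nucleus, against 4.47 and 4.41 in the cytosol, a log2 difference of -0.27 (adjusted p = 0.0179 in limma). Windows 3 and 4, which complete the stretch to nt 4680, differed by -0.26 and -0.20 and also passed. These 4 windows thus moved by nearly the same factor. The median log2 difference over the windows of 28S before the domain was close to theirs, at -0.23, and 42.8% of those windows were lower.

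The calls of these 4 windows changed with the scaling and when 1 library was left out. With depth scaled to 28S none of them passed, and the loop window was at -0.06 (adjusted p = 0.276 in limma). For the loop the adjusted p was 0.0526 without nuclear replicate 1, 0.0681 without cytosolic replicate 1 and 0.0547 without cytosolic replicate 2, at log2 differences of -0.26 to -0.24 over all 4 such fits. Window 1 was lost without the same libraries, where limma gave adjusted p-values of 0.0853, 0.101 and 0.0856. Window 3 was lost without cytosolic replicate 1 (0.0563) or 2 (0.0652). Window 4 was lost with any 1 library left out, with limma adjusted p-values of 0.156 and 0.0533 without nuclear replicates 1 and 2, and 0.106 and 0.108 without cytosolic replicates 1 and 2. The direction of the loop window was the same in every alternative run on it.

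Both fractions covered this stretch deeply, among the highest of 28S. By mean relative depth the loop window ranked 19 in the nucleus and 15 in the cytosol among the 169 windows of 28S, and window 4 ranked 10 and 6. The place of the maximum differed between the fractions. In both nuclear libraries the deepest position of the domain was nt 4716, at 6.67 and 7.35, where the cytosolic libraries had 5.68 and 5.44. In both cytosolic libraries it was nt 4660, where the nuclear libraries had 6.11 and 6.30 and the cytosolic ones 7.07 and 7.12. The nuclear maximum was therefore farther along the RNA, within the window that ranked 5 of 169 in the nucleus and 20 in the cytosol.

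Depth then declined into the trough earlier in the cytosol than in the nucleus, and the largest rises of the domain lay there. Window 6, nt 4711 to 4740, had 5.97 and 6.61 in the nuclear libraries and 4.90 and 4.69 in the cytosolic ones. Window 7, nt 4741 to 4770, had 3.70 and 4.23 in the nucleus, against 2.29 and 2.26 in the cytosol. Window 8, nt 4771 to 4800, had 1.80 and 2.09 in the nucleus, against 0.928 and 0.976 in the cytosol. Both nuclear libraries were above both cytosolic ones in each window, and the nuclear mean was 1.31, 1.74 and 2.04 times the cytosolic mean, growing toward the trough.

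The log2 differences of windows 6, 7 and 8 were 0.39 (95% interval 0.19 to 0.59), 0.79 (0.56 to 1.03) and 1.02 (0.74 to 1.30), and limma gave adjusted p-values of 0.0148, 0.00387 and 0.00307. Windows 7 and 8 passed as rises under every alternative run on windows of 30 nt, with log2 differences of 0.58 to 0.98 and 0.80 to 1.21. Window 6 did not pass without cytosolic replicate 1 (adjusted p = 0.0749 in limma), without cytosolic replicate 2 (0.0889) or with the median of ratios, where its log2 difference was 0.17. Window 5, nt 4681 to 4710, between the fall and the rise, had 5.41 and 5.79 in the nucleus, against 5.61 and 5.48 in the cytosol, with overlapping libraries and a log2 difference of 0.01. With depth scaled to 28S window 5 passed as higher, at 0.20 (adjusted p = 0.043 in limma).

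The trough itself reversed the order of the fractions within a few nucleotides. Window 9, nt 4801 to 4830, had a relative depth of 0.0391 in both nuclear libraries and 0.0732 and 0.0731 in the cytosolic ones. Window 10, nt 4831 to 4860, had 0.0398 and 0.0287 in the nucleus, against 0.0609 and 0.0623 in the cytosol. The fractions did not overlap in either window, and the cytosolic depth was 1.87 and 1.80 times the nuclear depth.

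On the log2 scale with a pseudocount of 0.01, which understates the change at such low values, windows 9 and 10 differed by -0.76 (95% interval -1.21 to -0.31) and -0.71 (-1.27 to -0.14), and limma gave adjusted p-values of 0.0223 and 0.0484. Without cytosolic replicate 1 or 2 neither call held. The adjusted p was then 0.128 or 0.116 for window 9 and 0.189 or 0.185 for window 10, at nearly the same differences. With the replicate number as a block both were lost too, with adjusted p-values of 0.148 and 0.161. Window 10 was also lost with depth scaled to 28S or to the domain, with no minimum depth and without a variance trend. The size depended on the scale, at -0.32 and -0.27 with a pseudocount of 0.1, and at -1.39 for window 9 on window medians, where both passed. The lowest position of the middle had 2364 to 3559 reads in the 4 libraries, not far above the 1890 to 2117 reads that this pseudocount equals. The part of low depth in these differences was not tested.

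The floor of the trough had 2 parts. Depth dropped steeply across the run of 9 C at nt 4798 to 4806, to 0.0126 and 0.0125 at its last base in the nuclear libraries and 0.0175 and 0.0169 in the cytosolic ones. At the next base, nt 4807, it stood at 0.127 and 0.126 in the nucleus, against 0.155 and 0.167 in the cytosol, a climb of 8.86 to 10.1 times over 1 base in every library. The notch ended where the run of C ended in all 4 libraries. The drop across the run was deeper in the nucleus, which stood at 0.530 and 0.644 at the first C, against 0.292 and 0.336 in the cytosol, and the order of the fractions turned within it, at nt 4804.

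The fractions stood farther apart after the notch. Depth declined again to a second minimum, at nt 4823 in both nuclear libraries, with 0.0137 and 0.0135, and at nt 4841 and 4842 in the cytosolic ones, with 0.0402 and 0.0379. The cytosolic mean at this second minimum was 2.87 times the nuclear mean. Around nt 4808, between the 10 nt before it and the 10 nt from it on, the log2 step was -1.35 and -1.60 in nuclear replicates 1 and 2, against 0.08 and -0.0003 in the cytosolic pair. No other scanned position of the domain had a larger fall of the nuclear relative to the cytosolic depth. The largest rise, at nt 4831, was smaller, with changes of 0.18 and 0.15 in the nucleus, against -0.35 and -0.28 in the cytosol. These positions were picked for their size and carry no test.

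The trough lay in the most G+C-rich part of the domain. That part began before the trough, as window 8 still had a mean relative depth of 1.94 in the nucleus and 0.952 in the cytosol. Windows 8, 9 and 10 had 93.3%, 90% and 93.3% G+C, against 40% to 60% in windows 1 to 5, and the longest run of only G and C, 25 nt, spanned nt 4782 to 4806. The 3 windows did not move alike, since window 8 rose and windows 9 and 10 fell. Of the 21 other windows of 28S with at least 90% G+C, 13 were lower in the nucleus and 0 higher (limma). Their median log2 difference was -0.38 (range -1.85 to 0.53). Of the 62 windows before the domain with 70 to under 90% G+C, 3 were higher and 27 lower (range -3.15 to 1.64). A rise near a fall occurred there too. Mean relative depth at nt 751 to 780 was 1.43 in the nucleus, against 0.613 in the cytosol. At nt 871 to 900 it was 0.0114 in the nucleus, against 0.0991 in the cytosol. Over all 152 windows before the domain 42.8% were lower and 3.29% higher. A count of 0 higher among 21 is near the latter share, while 13 lower among 21 is above the former. The part of G+C content in these differences was not tested.

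**Figure D3:**
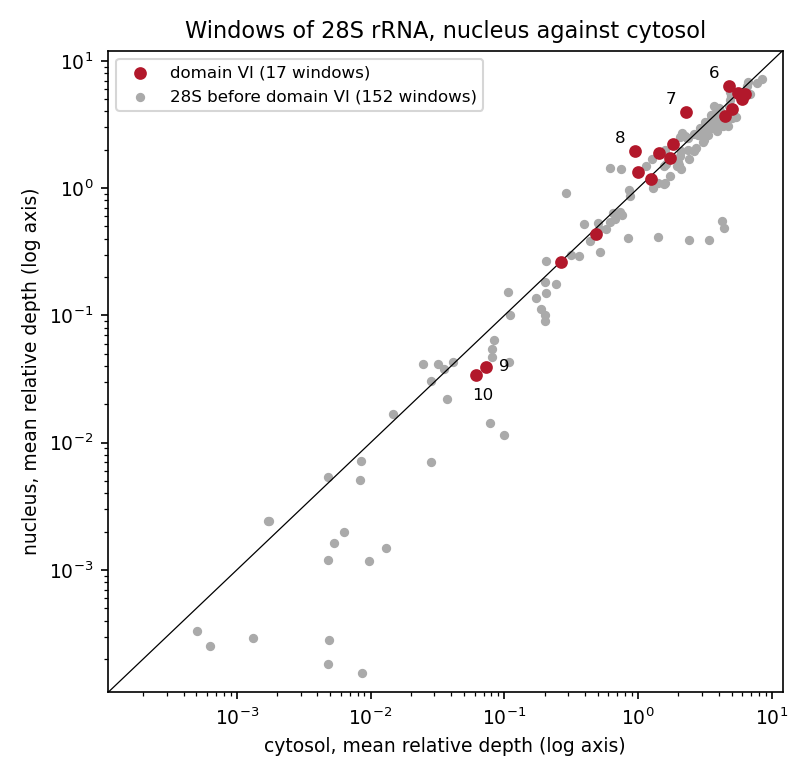
Mean relative depth of the 169 windows of 28S in the nucleus (vertical, log axis) against the cytosol (horizontal, log axis), with the 17 windows of domain VI in red, windows 6 to 10 numbered, and the 152 windows before it in grey. The line marks equal values. Windows 6, 7 and 8 lie above the line, and windows 9 and 10 lie below it, at 0.0391 and 0.0343 in the nucleus, against 0.0731 and 0.0616 in the cytosol.

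Beyond the trough both nuclear libraries were again above both cytosolic ones in windows 12 and 13, but not in window 11. The nuclear libraries also differed from each other there. Window 11, nt 4861 to 4890, had 0.316 and 0.206 in the nucleus, against 0.258 and 0.269 in the cytosol, with the cytosolic pair between the nuclear values. Window 12, nt 4891 to 4920, had 1.52 and 1.17 in the nucleus, against 1.002 and 0.977 in the cytosol. Window 13, nt 4921 to 4950, had 2.06 and 1.71 in the nucleus, against 1.46 and 1.40 in the cytosol. In windows 12 and 13 the fractions did not overlap, yet the spread of the nuclear pair left them outside the threshold, at 0.42 (adjusted p = 0.0879 in limma) and 0.39 (adjusted p = 0.0543). Without nuclear replicate 2 both passed, at 0.61 and 0.53, and without nuclear replicate 1 they were at 0.23 (adjusted p = 0.233) and 0.26 (0.122). Both also passed with depth scaled to 28S, at 0.61 (0.0349) and 0.58 (0.0169), with a pseudocount of 0.0001 and with a higher minimum depth.

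Window 14, nt 4951 to 4980, was the rise called on this side. It had 2.32 and 2.14 in the nucleus, against 1.87 and 1.76 in the cytosol, a log2 difference of 0.29 (95% interval 0.09 to 0.50, adjusted p = 0.0321 in limma). The call was lost without nuclear replicate 1 (adjusted p = 0.126), cytosolic replicate 1 (0.0826) or cytosolic replicate 2 (0.129). It was also lost with the median of ratios, where its log2 difference was 0.08 (adjusted p = 0.505 in limma). The same held with scaling to the domain, with window medians and without a variance trend.

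Finer windows placed the changes more closely. Of 51 windows of 10 nt in the domain, 12 were higher and 16 lower in the nucleus, where 37.0% of all 10-nt windows tested were higher and 18% lower. The 12 windows from nt 4561 to 4680 were all lower and the 9 from nt 4711 to 4800 all higher. After them 4 windows from nt 4811 to 4850 were lower, at log2 differences of -1.30 to -0.76, and 3 from nt 4941 to 4970 were higher. Read base by base, both nuclear libraries were below both cytosolic ones without a break over nt 4561 to 4693, in the trough from nt 4804 to 4866 and near the 3' end from nt 5051 to 5062, and above them at nt 4702 to 4803 and nt 4890 to 4980.

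By that count 193 of the 510 positions (37.8%) were higher and 214 (42.0%) lower in both nuclear libraries. Over all listed positions the shares were 44.0% and 32.2%. In the rest of 28S they were 15.2% and 62.7%.

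From nt 4981 to nt 5047 the fractions overlapped at every position, and at nt 5051 to 5062 both nuclear libraries were lower. Window 15 had 1.69 and 1.78 in the nucleus, against 1.79 and 1.65 in the cytosol, and window 16 had 1.14 and 1.23 in the nucleus, against 1.29 and 1.19 in the cytosol. Window 17, nt 5041 to 5070, had 0.423 and 0.454 in the nucleus, against 0.506 and 0.460 in the cytosol. The libraries of the fractions did not overlap in window 17, and its log2 difference of -0.14 (95% interval -0.48 to 0.21) had an adjusted p of 0.402 in limma. The interval still allows a fall of 0.48 or a rise of 0.21. The log2 ratio of the last window to the rest of the domain was -2.68 ± 0.04 in the nucleus and -2.47 ± 0.08 in the cytosol (SD, n = 2, exact permutation p = 0.333), a difference of -0.21 that was -0.56 on median depths.

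Toward the mature 3' end depth declined over many bases before a steep last fall, and most coverage stopped short of the annotated last base. Relative depth at nt 5040 was 0.959 and 1.04 in the nuclear libraries and 1.12 and 1.02 in the cytosolic ones. At nt 5064 it was 0.122 and 0.127 in the nucleus, against 0.131 and 0.123 in the cytosol. Depth then dropped over 1 base after nt 5064, by 15.1 and 15.4 times in the nuclear libraries and 14.3 and 14.9 times in the cytosolic ones. In reads, depth at nt 5064 was 25734 and 23924 in the nucleus, against 27116 and 24261 in the cytosol. At the next base it was 1709 and 1553 in the nucleus, against 1892 and 1629 in the cytosol. This steepest fall lay 6 nt before the annotated end, ahead of the bases TTTGTC. At the 3' ends of 5.8S and 18S the steepest single-base fall lay 2 and 20 nt before the annotated end, in all 4 libraries.

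At the last base of 28S, nt 5070, 75 and 107 reads remained in the nuclear libraries and 123 and 97 in the cytosolic ones. The first base of the 3'ETS had 11 and 14 reads in the nucleus, against 14 and 17 in the cytosol. Mean depth over the last 10 nt of 28S was 1964 and 1798 times that over the first 10 nt of the 3'ETS in the nucleus, and 2116 and 1611 times in the cytosol. Reads that could span the boundary were thus rare in both fractions, and the ranges of this ratio overlapped.

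**Figure D4:**
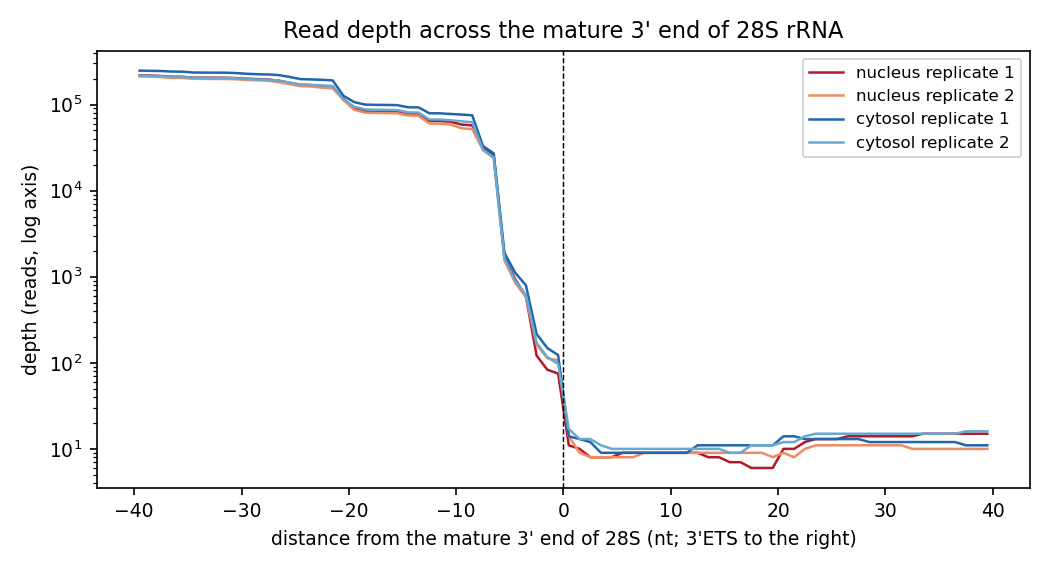
Depth in reads (log axis) from 40 nt before to 40 nt after the annotated mature 3' end of 28S (dashed line), with the 3'ETS to the right, for 2 nuclear (red and orange) and 2 cytosolic (shades of blue) libraries. All 4 lines drop together after nt 5064, 6 nt before the annotated end, and stay far lower in the 3'ETS.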

How the data were processed

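RNA from anti-Flag pull-downs was made into directional libraries, per the labels' protocols. The submitters' processing notes name Bowtie2 2.2.6, SAMtools and cutadapt 1.5. For settings, strand use and read filters, the sources used here give nothing. The deposited signal is unscaled coverage per position, per the file headers and values. Bounds of the mature rRNAs came from the offsets of the RefSeq genes (GRCh38.p14 table) within RNA45SN5, whose version there is newer than the deposited reference but of equal length.

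Depth was divided by the library mean and averaged in 30-nt windows (last pieces under 15 nt joined). Windows that reached a depth of 10 on average in at least 2 libraries (439 of 533) were tested on log2(relative depth + 0.01) with two-sided limma 3.58.1 in R 4.3.3 (variance trend, 4 libraries, no block, Benjamini-Hochberg, threshold 0.05). The pseudocount equals 1890 to 2117 reads. Regions were fitted on log2 without pseudocount or trend. Ratios used exact permutation tests (scipy 1.17.1). The window fit was tested on simulated data of these 439 windows with 200 changed (20 draws). It recovered 59.9%, 82.2%, 95.7% and 99.4% of changes of 0.25, 0.5, 1 and 2 on the log2 scale, with 6.45 false calls per draw on average. Noise was drawn independently for each window and library, all changes were rises in the nucleus, and no scaling shift was put in. The rates therefore leave out reads shared between windows and the choice of scaling.

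All windows of the domain are reported. Values per library are given for the loop, first and last windows and the 3 largest called rises and falls, and further windows, the second minimum and the 3' fall were picked with their values in view. The domain, its division and the tests were chosen with earlier results of these data known. Replicate numbers were not taken as pairs (correlation of same-numbered deviations 0.107 over all windows, -0.24 in the domain). With 2 libraries per fraction this correlation cannot show whether same-numbered libraries came from the same cells, which the labels do not say. The fit with the replicate number as a block is therefore given too.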

Additional observations from a re-analysis of the deposited data

How the results depend on the processing

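Alternatives changed scaling, pseudocount, minimum depth, window summary, width, variance trend, block and libraries. The counts of higher and lower windows in the domain were 4 and 6. Higher windows numbered 2 with the median of ratios and 7 with scaling to 28S, and lower ones 1 with scaling to 28S. With 51-nt windows 3 of 10 were lower, and with 10-nt windows 12 of 51 were higher and 16 lower. Leaving out 1 library gave 2 to 6 higher and 0 to 5 lower. The loop window was at -0.058 with scaling to 28S and at -0.26 to -0.24 with 1 library left out. The domain's relative depth (0.06) was -0.15 with the median of ratios, 0.26 with scaling to 28S, 0.32 on median depths and 0.04 to 0.09 with 1 library left out. Its ratio to the rest of 28S (0.29) was 0.26 to 0.33 with 1 library left out, 0.65 on median depths and -0.31 against 18S. The middle over the flanks gave 0.47 to 0.56, and the last window over the rest -0.26 to -0.15, with 1 library left out, and on median depths these were 0.20 and -0.56. The cause of these changes was not tested, though some settings themselves change the number of windows or libraries.

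Sign changes of single windows concerned windows that did not pass. Window 5 (0.01) turned to -0.20 with the median of ratios, -0.051 with scaling to the domain and -0.020 with medians, and ranged from -0.036 to 0.062 with 1 library left out, below 0 without nuclear replicate 2 and at -0.004 without cytosolic replicate 2. Window 15 (0.01) turned to -0.20 with the median of ratios and -0.050 with scaling to the domain, and ranged from -0.042 to 0.071 with 1 library left out. Window 11 (-0.04) was at 0.14 with scaling to 28S and ranged from -0.34 to 0.25 with 1 library left out. Windows 16 and 17 turned to 0.12 and 0.051 with scaling to 28S.

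With the replicate number as a block, 5 windows were higher and 4 lower. Windows 9 (adjusted p = 0.148 in limma) and 10 (0.161) were lost and window 13 passed (0.0308). The loop window was at -0.25 (0.0273). Windows 12 and 13 also passed with a pseudocount of 0.0001, with a higher minimum depth and with scaling to 28S, where window 5 passed too. Every position of the middle had at least 2364 reads.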
